A study of Rattus norvegicus with 16 samples.

Results

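The genes described here are 10 that make, conjugate, sense or carry bile acids in liver: Cyp7a1, Cyp8b1, Cyp27a1, Cyp7b1, Baat, Nr1h4, Nr0b2, Slco1b2, Slc10a1 and Abcb11. Their probes were found by the RefSeq name that the scan files give for each probe, and all 10 genes had at least 1 probe among the 15154 named genes of the array. Nr1h4 had 2 probes and the other members 1 each, which makes 11 of 30367 probes. All 10 passed the filter on dim probes and were among the 13139 transcripts tested, although Cyp7b1 was well above background on 11 of 16 arrays.

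Liver RNA came from male Sprague-Dawley rat pups on postnatal day 21, whose dams had been dosed from the start of gestation until the day before. The M group was exposed to a mixture of organochlorine pesticides, polychlorinated biphenyls (PCBs) and methylmercury at 1.0 mg/kg/day. The 0.5M group was exposed to the same mixture at 0.5 mg/kg/day. The AhR group was exposed to aryl hydrocarbon receptor agonists (non-ortho PCBs, dioxins and furans) at 1.8 ng/kg/day in dioxin equivalents, and the C group to corn oil, the vehicle. Pups of all 4 groups stayed with their birth mothers, so exposure before birth and through milk was not separated. Each group had 4 arrays, each with RNA pooled from 2 of 8 pups, against a universal rat reference RNA from cell lines on every array. A value is the log2 ratio of liver over that reference, so 1 unit is a doubling, and levels of different genes are not comparable. The labels do not give litters, and p-values are too small if arrays shared one.

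Bile acids are made from cholesterol in hepatocytes. Cyp7a1 starts the classic pathway and limits its rate, Cyp8b1 adds the hydroxyl group that makes cholic acid, and Cyp27a1 and Cyp7b1 act in the alternative pathway. Bile acids in the hepatocyte bind the nuclear receptor FXR, the product of Nr1h4, which induces Nr0b2. The product of Nr0b2, SHP, is a repressor that acts through NR5A2 and HNF4A on Cyp7a1 and Cyp8b1. Slc10a1 (NTCP) and Slco1b2 (OATP1B2) take bile acids up from portal blood, Baat joins them to taurine or glycine, and Abcb11 (BSEP) pumps them into bile.

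The promoters of Nr0b2 and Cyp8b1 are shown because they belong to the repressor of this feedback loop and to a gene it acts on. They were taken from RefSeq on GRCr8, which has a promoter for 6 of the 10 members in the table used; those of Cyp7a1, Cyp7b1, Nr1h4 and Abcb11 were not matched. Each runs from 250 bases before to 50 bases after the start site and is written 5′ to 3′ on the gene's strand. The Nr0b2 window is chr5:151062910-151063209 on the plus strand, and that of Cyp8b1 is chr8:130457543-130457842 on the minus strand. Capitals mark matches to the letters searched for on both strands.
Nr0b2: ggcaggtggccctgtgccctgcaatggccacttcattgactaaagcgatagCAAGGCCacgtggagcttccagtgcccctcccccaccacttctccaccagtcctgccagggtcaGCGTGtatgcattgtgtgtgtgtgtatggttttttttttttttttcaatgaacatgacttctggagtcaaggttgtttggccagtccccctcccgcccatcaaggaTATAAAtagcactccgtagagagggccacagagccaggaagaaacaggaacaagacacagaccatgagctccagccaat
Cyp8b1: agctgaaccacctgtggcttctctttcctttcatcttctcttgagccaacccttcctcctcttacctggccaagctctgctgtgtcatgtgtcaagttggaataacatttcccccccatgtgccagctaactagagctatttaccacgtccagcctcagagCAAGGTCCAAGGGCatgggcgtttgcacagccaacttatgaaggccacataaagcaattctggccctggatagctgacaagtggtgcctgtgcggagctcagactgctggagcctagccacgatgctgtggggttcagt
In Nr0b2 the capitals are the NR5A2 site core CAAGGNC at -199, the core of the aryl hydrocarbon receptor site GCGTG at -135 and the TATA box TATAAA at -29, counted from the start site to the first base of the match. In Cyp8b1 they are 2 adjoining matches to CAAGGNC, at -89 and -82. The letters CAAGGNC occurred in 18.6% of 33469 RefSeq promoters of the same length, GCGTG in 29.7% and TATAAA in 14.2%. The nuclear receptor half-site AGGTCA, whose first letters can overlap the end of CAAGGNC, occurred in 16.2% and in neither promoter shown. The inverted repeat of that half-site bound by FXR (0.0269% of promoters) and the HNF1 half-site (GTTAAT, 7.45%) had no match in either window. These matches are a description of letters and no sites of binding.

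The livers were checked against their defining markers. All 10 hepatocyte markers, among them Alb and Apoa1, were well above background on all 16 arrays. Their median deviation from each gene's median over the arrays, in log2 units, was -0.20 to 0.61 in M, -0.16 to 0.16 in 0.5M, -0.027 to 0.52 in AhR and -0.14 to 0.24 in C livers. Of 8 cholangiocyte markers 7 were on the array, with 1 to 5 well above background on each array: Slc4a2 on 16 arrays, Krt19 on 13, Epcam on 12, Krt7 on 9, Spp1 on 5, and Cftr and Sctr on 0. Their median deviation was -0.087 to 0.057 in M, -0.072 to 0.024 in 0.5M, -0.0082 to 0.039 in AhR and -0.051 to 0.11 in C livers. The arrays differed in brightness, with 7079 to 13765 probes well above background on slide 1 and 12994 to 15685 on slide 2, and the slides each held 2 arrays of every group (replicates 1 and 2 on slide 1). Of 13 skeletal muscle markers on the array, 12 were well above background in M replicate 2 and 13 in 0.5M replicate 4, with median deviations of 4.63 and 4.79 log2 units, against -0.47 to 0.86 on the other arrays. Pancreas markers were above their usual level in M replicate 1 (1.01) and AhR replicate 2 (0.71), and fat markers in C replicate 2 (0.68). The part of other tissue in any result below was not tested. Without these 5 arrays, 39 of the 60 differences of members (10 genes, 6 comparisons) moved by over 1.5 times or turned. Leaving out only the 1 array that moves each difference most did so for 45 of the 60. The share over all transcripts was not computed for either. Differences from C that moved so without the 5 arrays are given beside each gene. The 5 arrays include both M arrays of slide 1, so M values without them rest on the M arrays of slide 2 alone. In whole liver, fewer cells of a type and less RNA per cell cannot be told apart.

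No member passed an adjusted p of 0.05 in any of the 6 comparisons between groups, in the test across the 4 groups or in the slope over dose (limma with Benjamini-Hochberg adjustment over 13139 transcripts). In M against C, 42 of 13139 transcripts passed, 0.32% of those tested. The genes of this set that stood furthest apart in M livers were Nr0b2 and Slco1b2, with higher averages than in C livers, and Nr1h4, Cyp8b1 and Cyp7a1, with lower ones. These 5 of 10 members had an unadjusted p under 0.05 in M against C, where 10.2% of all transcripts did, and the values of 2 of 10 did not overlap between the groups, where 4.17% of transcripts did not. The members were chosen with earlier results of these data known, so the shares here and below are no independent test. The median difference of the 10 members was -0.078 (all transcripts -0.0012). In 0.5M against C, 2 transcripts passed (0.0152%). Of the members, 1 (Cyp8b1) had an unadjusted p under 0.05, against 6.55% of transcripts, none was without overlap, against 3.04%, and the median was 0.024 (all transcripts -0.0023). In AhR against C, 1 transcript passed (0.00761%). There 1 member (Nr0b2) had an unadjusted p under 0.05, against 3.74%, none was without overlap, against 1.96%, and the median was 0.043 (all transcripts 0.00051).

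**Figure D1:**
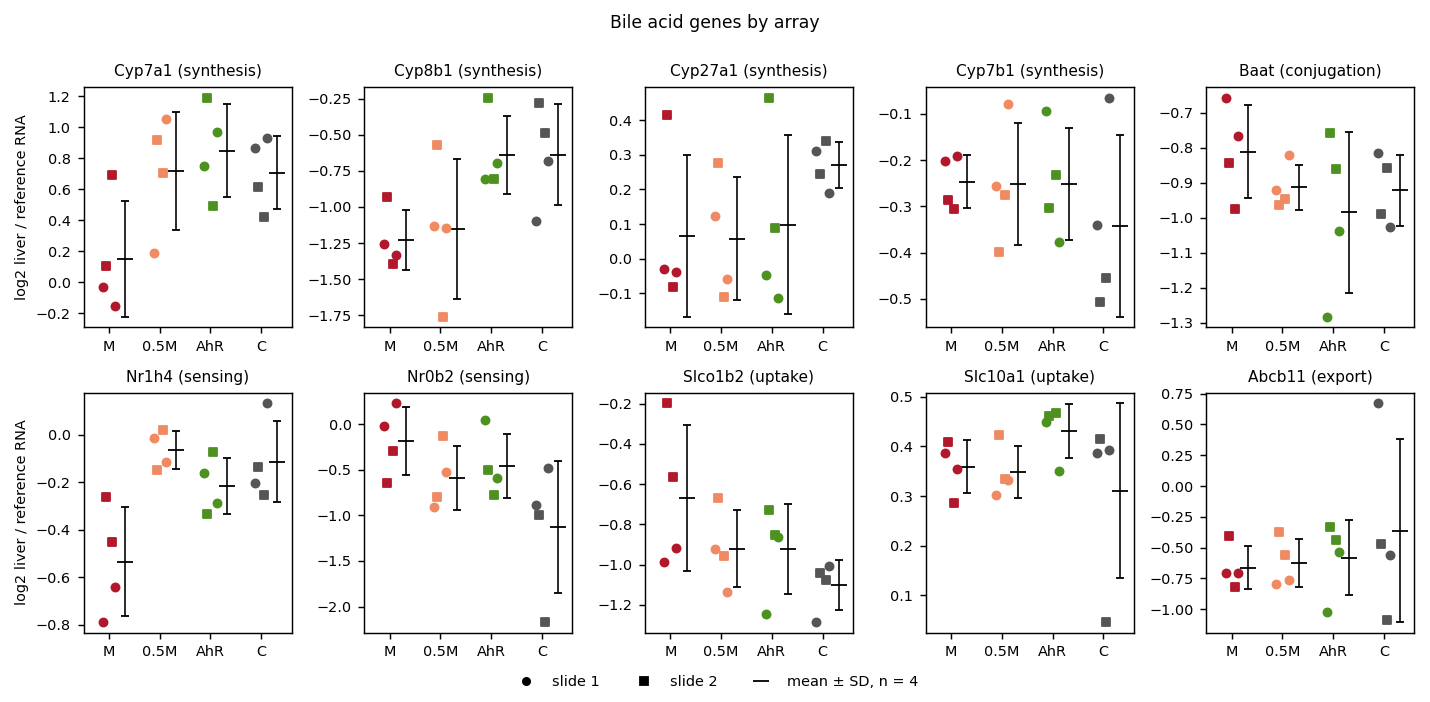
Log2 ratio of liver over reference RNA for the 10 genes on each array, by group; circles are arrays of slide 1, squares those of slide 2, and bars the mean and SD of 4 arrays, each panel with an axis of its own. Slco1b2 lies above all C arrays and Nr1h4 below all C arrays in M, while the groups overlap for the other members in that comparison.

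Among the enzymes of synthesis, Cyp8b1 and Cyp7a1 had lower averages in M than in C livers. Cyp8b1 had log2 ratios of -1.26, -1.33, -0.93 and -1.39 in M livers, -1.13, -1.15, -0.57 and -1.76 in 0.5M livers, -0.81, -0.70, -0.25 and -0.81 in AhR livers, and -1.10, -0.68, -0.28 and -0.49 in C livers. Of the M arrays, 3 lay below every C array and replicate 3 lay above C replicate 1, and all 4 lay below every AhR array. The difference was -0.59 ± 0.21 (SE, n = 4 each; 95% interval -1.03 to -0.15, 1.51-fold lower, adjusted p = 0.299) in M against C and -0.51 ± 0.21 (adjusted p = 0.737) in 0.5M against C. It was -0.0030 in AhR against C (interval -0.44 to 0.43), and 0.0017 without the 5 arrays with other tissue. Within the slides the M against C difference was -0.40 on slide 1 and -0.78 on slide 2. The 0.5M value for Cyp8b1 rests in part on replicate 4, the array with muscle transcripts: without it the difference from C was -0.26, and without the 5 arrays with other tissue -0.15.

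Cyp7a1 had log2 ratios of -0.03, -0.16, 0.10 and 0.69 in M livers, 0.19, 1.05, 0.92 and 0.70 in 0.5M livers, 0.75, 0.97, 1.19 and 0.49 in AhR livers, and 0.87, 0.93, 0.61 and 0.42 in C livers. M replicates 1 to 3 lay below every C array, and the 2 lowest values were those of M replicates 1 and 2, the arrays with pancreas and with muscle transcripts. M averaged 0.15 ± 0.37 and C 0.71 ± 0.23 (SD, n = 4 each), a difference of -0.56 ± 0.21 (95% interval -0.998 to -0.11, 1.47-fold lower, adjusted p = 0.346). It was -0.99 within slide 1 and -0.12 within slide 2, and -0.24 without the 5 arrays with other tissue. The difference from C was 0.0091 (interval -0.43 to 0.45; 0.091 without the 5 arrays) in 0.5M livers and 0.14 (-0.30 to 0.58) in AhR livers. In the contrast with AhR livers, M livers stood at -0.70 ± 0.21 (adjusted p = 0.254).

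Cyp27a1, which oxidises the sterol side chain, averaged 0.066 ± 0.23 in M livers, 0.057 ± 0.18 in 0.5M livers, 0.098 ± 0.26 in AhR livers and 0.27 ± 0.067 in C livers (SD, n = 4 each). In each exposed group 3 of 4 arrays lay below every C array, but the differences from C, -0.21, -0.21 and -0.17, all had intervals that include 0 (adjusted p = 0.612, 0.755 and 1.00). The 0.5M difference of Cyp27a1 was -0.12 without the 5 arrays and as much without 0.5M replicate 4 alone. Leaving out 1 array took the M difference to between -0.30 and -0.12, and median centring in place of loess took it to -0.46. In AhR livers it was -0.33 on slide 1, -0.016 on slide 2 and -0.28 without AhR replicate 3. Cyp7b1, the oxysterol hydroxylase of the alternative pathway, was dim, and its differences from C were 0.095, 0.089 and 0.090 in M, 0.5M and AhR livers, with intervals of -0.089 to 0.28, -0.095 to 0.27 and -0.095 to 0.27. Without the 5 arrays Cyp7b1 came to 0.20 in M and 0.22 in AhR livers, and without C replicate 2 alone to 0.17 in M and 0.16 in both 0.5M and AhR livers. Baat, the conjugating enzyme, averaged -0.81 ± 0.13 in M, -0.91 ± 0.064 in 0.5M, -0.98 ± 0.23 in AhR and -0.92 ± 0.10 in C livers. Its differences from C lay between -0.063 and 0.11, and every group overlapped with C. Without the 5 arrays the Baat difference was -0.054 in M livers, against 0.11 with them, and 0.016 in 0.5M livers, against 0.0088 with them.

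Of the sensing genes, Nr1h4 had a lower average in M livers and Nr0b2, which FXR induces, a higher one. Nr1h4 had log2 ratios of -0.79, -0.64, -0.26 and -0.45 in M livers, -0.01, -0.12, -0.15 and 0.02 in 0.5M livers, -0.16, -0.29, -0.34 and -0.07 in AhR livers, and -0.20, 0.13, -0.14 and -0.25 in C livers. All 4 M values lay below every C and every 0.5M value. The difference was -0.42 ± 0.11 (95% interval -0.66 to -0.18, 1.34-fold lower, adjusted p = 0.165) in M against C and -0.47 ± 0.11 (adjusted p = 0.337) in M against 0.5M. The M against C difference was -0.68 on slide 1, where both M arrays carried transcripts of other tissue, and -0.16 on slide 2. Without the 5 arrays, which leaves only the M arrays of slide 2, it was -0.15. With median centring of the arrays in place of loess it was -0.67. The other probe of Nr1h4, dimmer by its mean log2 intensity (7.91 against 11.27), did not show it, at 0.072 for M against C, and the mean of both probes gave -0.17. The difference of the brighter probe from C was 0.050 in 0.5M livers (0.090 without the 5 arrays) and -0.10 in AhR livers (0.0058 without them).

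Nr0b2 had log2 ratios of -0.02, 0.23, -0.64 and -0.29 in M livers, -0.91, -0.52, -0.80 and -0.13 in 0.5M livers, 0.05, -0.59, -0.50 and -0.78 in AhR livers, and -0.88, -0.48, -0.99 and -2.17 in C livers. The value of C replicate 4 was the lowest of all 16 arrays, and 3 of 4 M arrays lay above every C array. M averaged -0.18 ± 0.37 and C -1.13 ± 0.73 (SD, n = 4 each), a difference of 0.95 ± 0.27 (95% interval 0.39 to 1.51, 1.93-fold higher, adjusted p = 0.189), with 0.78 on slide 1 and 1.11 on slide 2. The difference from C was 0.54 ± 0.27 (adjusted p = 0.751) in 0.5M livers and 0.67 ± 0.27 (adjusted p = 1.00) in AhR livers. The 3 comparisons share the C arrays, and without C replicate 4 they came to 0.64 for M, 0.24 for 0.5M and 0.37 for AhR. In 0.5M livers the difference from C was -0.035 on slide 1 and 1.12 on slide 2.

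**Figure D2:**
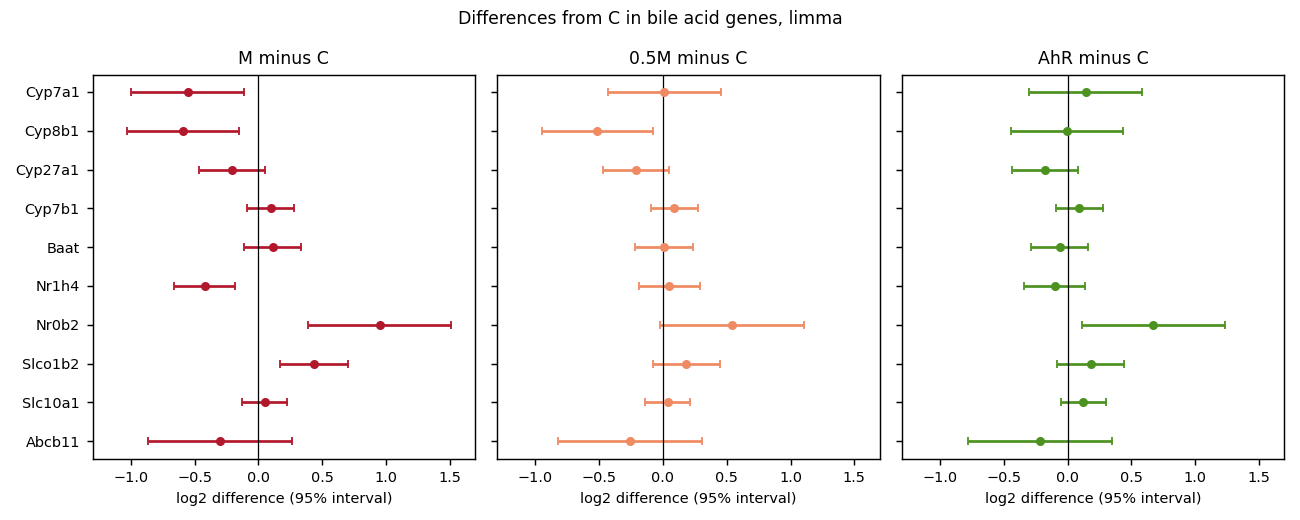
Log2 difference from C for the 10 genes in M, 0.5M and AhR livers, with 95% intervals of the limma fit (n = 4 arrays each). In M the intervals of Cyp7a1, Cyp8b1, Nr1h4, Nr0b2 and Slco1b2 leave out 0, in 0.5M that of Cyp8b1 and in AhR that of Nr0b2, and no member passed after adjustment.

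Of the carriers, Slco1b2 had a higher average in M than in C livers. It had log2 ratios of -0.99, -0.92, -0.20 and -0.57 in M livers, -0.92, -1.14, -0.67 and -0.96 in 0.5M livers, -1.25, -0.86, -0.73 and -0.85 in AhR livers, and -1.28, -1.01, -1.04 and -1.08 in C livers. All 4 M values lay above every C value, and the M arrays of slide 2 were the highest of the 16. The difference was 0.44 ± 0.12 (95% interval 0.17 to 0.70, 1.35-fold higher, adjusted p = 0.192), with 0.19 on slide 1, 0.68 on slide 2 and, with median centring of the arrays in place of loess, 0.17. The difference from C was 0.18 ± 0.12 in both 0.5M livers (adjusted p = 0.801) and AhR livers (adjusted p = 1.00), with 3 of 4 arrays above every C array in each. These values moved with the arrays and the scaling. Without the 5 arrays the 0.5M difference of Slco1b2 was 0.34, with scanner ratios the differences were 0.070 in 0.5M and 0.054 in AhR livers, and leaving out 1 array gave 0.13 to 0.27 in 0.5M and 0.11 to 0.27 in AhR livers. The other uptake carrier, Slc10a1, averaged 0.36 ± 0.054 in M, 0.35 ± 0.052 in 0.5M, 0.43 ± 0.054 in AhR and 0.31 ± 0.18 in C livers. In C, replicate 4 was at 0.047 and the other arrays at 0.39 to 0.42. Its differences from C were 0.049 in M (interval -0.13 to 0.23), 0.038 in 0.5M (0.066 without the 5 arrays) and 0.12 in AhR livers, and without C replicate 4 they were -0.044, -0.055 and 0.028.

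Abcb11, the pump that exports bile acids, had log2 ratios of -0.71, -0.71, -0.41 and -0.82 in M livers, -0.80, -0.76, -0.38 and -0.56 in 0.5M livers, -1.02, -0.53, -0.33 and -0.44 in AhR livers, and 0.67, -0.56, -0.47 and -1.09 in C livers. C replicate 1 lay above all the other arrays. The difference of M against C was -0.30 ± 0.27 (adjusted p = 0.762), -0.76 on slide 1 and 0.17 on slide 2, and without C replicate 1 it was 0.074. The difference of Abcb11 from C was -0.26 ± 0.27 in 0.5M (adjusted p = 0.874; -0.39 without the 5 arrays) and -0.22 ± 0.27 in AhR livers (adjusted p = 1.00). Without C replicate 1 these were 0.11 and 0.15.

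**Figure D3:**
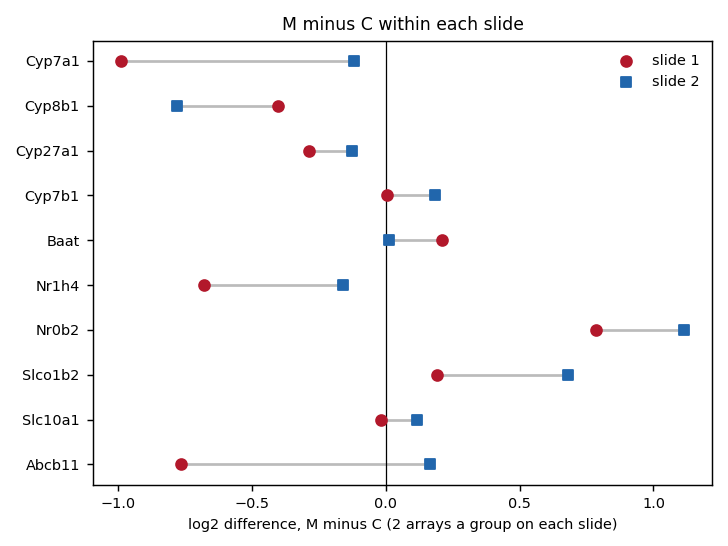
Log2 difference of M minus C within each slide (circles slide 1, squares slide 2; 2 arrays a group on each) for the 10 genes. Cyp8b1, Nr0b2, Slco1b2, Nr1h4 and Cyp7a1 kept 1 direction on both slides with sizes that differed. So did Cyp27a1, Cyp7b1 and Baat, while Abcb11 and Slc10a1 lay on opposite sides of 0.

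Between exposed groups, 2 transcripts passed in M against 0.5M (0.0152%), 34 in M against AhR (0.259%) and 3 in 0.5M against AhR (0.0228%). In M against 0.5M, 2 members (Cyp7a1 and Nr1h4) had an unadjusted p under 0.05, where 6.7% of transcripts did, and 1 (Nr1h4) was without overlap, where 2.8% were. In M against AhR it was 3 members (Cyp7a1, Cyp8b1 and Nr1h4), against 9.91%, and 1 without overlap (Cyp8b1), against 3.99%. In 0.5M against AhR it was 1 (Cyp8b1, -0.51 ± 0.21, adjusted p = 0.497), against 9.02%, and none without overlap, against 5.02%. Cyp7a1 stood at -0.56 ± 0.21 in M against 0.5M (adjusted p = 0.609). Without the 5 arrays with other tissue, Cyp7a1 came to -0.33 and Nr1h4 to -0.24 in M against 0.5M, Cyp7a1 to -0.42 and Nr1h4 to -0.15 in M against AhR, and Cyp8b1 to -0.16 in 0.5M against AhR. The M against AhR difference was -0.59 ± 0.21 for Cyp8b1 and -0.32 ± 0.11 for Nr1h4, both at an adjusted p of 0.339.

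The remaining 24 of the 30 member differences between exposed groups had an unadjusted p over 0.05 (adjusted p from 0.517 to 0.999). Slco1b2 stood at 0.25 ± 0.12 in M against 0.5M, 0.26 ± 0.12 in M against AhR and 0.0013 in 0.5M against AhR, and without the 5 arrays at 0.30, 0.45 and 0.15. Nr0b2 stood at 0.41 ± 0.27, 0.28 ± 0.27 and -0.13 ± 0.27 in the same order, and without the 5 arrays at 0.61, 0.11 and -0.50. Cyp8b1 was at -0.077 in M against 0.5M and at -0.56 without the 5 arrays, which leave out the low 0.5M replicate 4. In 0.5M against AhR, Cyp7a1 was at -0.13 and Nr1h4 at 0.15. For the other members, in M against 0.5M, M against AhR and 0.5M against AhR, Baat was at 0.10, 0.17 and 0.072, and Slc10a1 at 0.011, -0.072 and -0.083. Abcb11 was at -0.038, -0.081 and -0.043, Cyp27a1 at 0.0084, -0.032 and -0.041, and Cyp7b1 at 0.0060, 0.0054 and -0.00063. Without the 5 arrays, Baat turned negative in M against 0.5M and Cyp7b1 in M against AhR. The values of these other members are given here with all arrays only.

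Across the 4 groups 24 transcripts passed (0.183%) and the member with the smallest adjusted p was Nr1h4 (0.278). The slope over 0, 0.5 and 1.0 mg/kg/day of the mixture passed for 38 transcripts (0.289%). Among members the smallest adjusted p of the slope was 0.220, of Slco1b2 (0.44 log2 units per mg/kg/day), followed by Nr0b2 (0.95, adjusted p = 0.226). With equal groups at evenly spaced doses, these slopes equal the M against C differences. The 0.5M livers bear only on the spread and p of the slope, so it is no separate result on dose. Between slides, 8.22% of transcripts passed and no member did, with Slco1b2 nearest (slide 2 minus slide 1 of 0.28, adjusted p = 0.0571).

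A further 44 genes of the pathway were listed with known results of these data in view, of which 34 were tested. Cyp46a1, Klb and Slc51b had no probe matched by RefSeq name, and Ch25h, Vdr, Gpbar1, Prox1, Abcg8, Slc51a and Slc10a2 were too dim. None of the 34 passed in any of the 6 comparisons by limma, where 7 had an unadjusted p under 0.05 in M against C (background 10.2%), 4 in 0.5M against C (6.55%), 2 in AhR against C (3.74%) and 5 in each comparison between exposed groups (6.7% to 9.91%). The median difference over the 34 was 0.029 in M, -0.039 in 0.5M and 0.034 in AhR livers. The closest to passing was Abcc2 (MRP2), the canalicular pump for conjugated organic anions.

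Abcc2 had log2 ratios of -0.90, -1.39, -0.80 and -0.99 in M livers, -1.05, -1.08, -1.14 and -0.96 in 0.5M livers, -1.28, -1.63, -1.37 and -1.36 in AhR livers, and -1.57, -1.66, -1.35 and -1.60 in C livers. All 4 of the 0.5M values and 3 of 4 M values lay above every C value, with M replicate 2, the array with muscle transcripts, the exception. The difference was 0.53 ± 0.11 (1.44-fold higher, adjusted p = 0.0560) in M against C and 0.49 ± 0.11 (adjusted p = 0.441) in 0.5M against C, and 0.39 ± 0.11 (adjusted p = 0.228) in M against AhR. Without M replicate 2 it passed in M against C (adjusted p = 0.0064) and in M against AhR (adjusted p = 0.0491). It did not pass in either comparison without the arrays with pancreas transcripts (M replicate 1 and AhR replicate 2) or without the 5 arrays with other tissue. Abcc3 (MRP3), which exports from the hepatocyte to blood, was 0.44 ± 0.14 in M (adjusted p = 0.267) and 0.37 ± 0.14 in 0.5M livers (adjusted p = 0.722) against C, and it differed between the slides (0.35, adjusted p = 0.0446). Its M against C difference was 0.14 on slide 1 and 0.74 on slide 2, and 0.73 without the 5 arrays with other tissue. Abcc3 was dim, well above background on 13 of 16 arrays, and not on M replicate 2 or C replicate 1. Its Cy5 signals over background on slide 1 were 12.75 and 15.75 in M and 6.5 and 21 in C livers. Without C replicate 4 the 0.5M difference of Abcc3 from C was 0.23.

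Other genes with the smallest p were the LXR-beta gene Nr1h2 in M against C (-0.24 ± 0.081, adjusted p = 0.290, all 4 M arrays below every C array) and the acyl-CoA synthetase Slc27a2 in 0.5M against C (-0.27 ± 0.10, adjusted p = 0.701). In AhR against C they were Mafg, a repressor of bile acid synthesis in mice (0.29 ± 0.10), the phospholipid pump Abcb4 (0.31 ± 0.12) and the receptor CAR gene Nr1i3 (0.36 ± 0.18), all with adjusted p = 1.00. Without AhR replicate 4 these came to 0.19 for Abcb4 and 0.18 for Nr1i3, and the dimmer second probe of Nr1i3 was at 0.12. In M against 0.5M they were the sulfotransferase Sult2a6 (-0.31 ± 0.082, adjusted p = 0.449), the 5-beta-reductase Akr1d1 (0.48 ± 0.14, adjusted p = 0.487) and the sterol exporter Abcg5 (-0.80 ± 0.29, adjusted p = 0.609). Akr1d1 was at 0.25 without the 5 arrays with other tissue. In M against AhR, Abcg5 was at -0.92 ± 0.29 (adjusted p = 0.277) and Nr1h2 at -0.26 ± 0.081 (adjusted p = 0.288). The Abcg5 values rest in part on M replicate 4, at a log2 ratio of -0.70 with the other M arrays at 0.37 to 1.00. Without it Abcg5 was at -0.41 in M against 0.5M and -0.53 in M against AhR, and at -0.28 in M against C, where it was -0.67 with all arrays. Akr1d1 was at -0.54 ± 0.14 (adjusted p = 0.327), Abcc2 at 0.35 ± 0.11 (adjusted p = 0.396) and Nr1i3 at -0.54 ± 0.18 (adjusted p = 0.429; -0.36 without AhR replicate 4) in 0.5M against AhR.

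**Figure D4:**
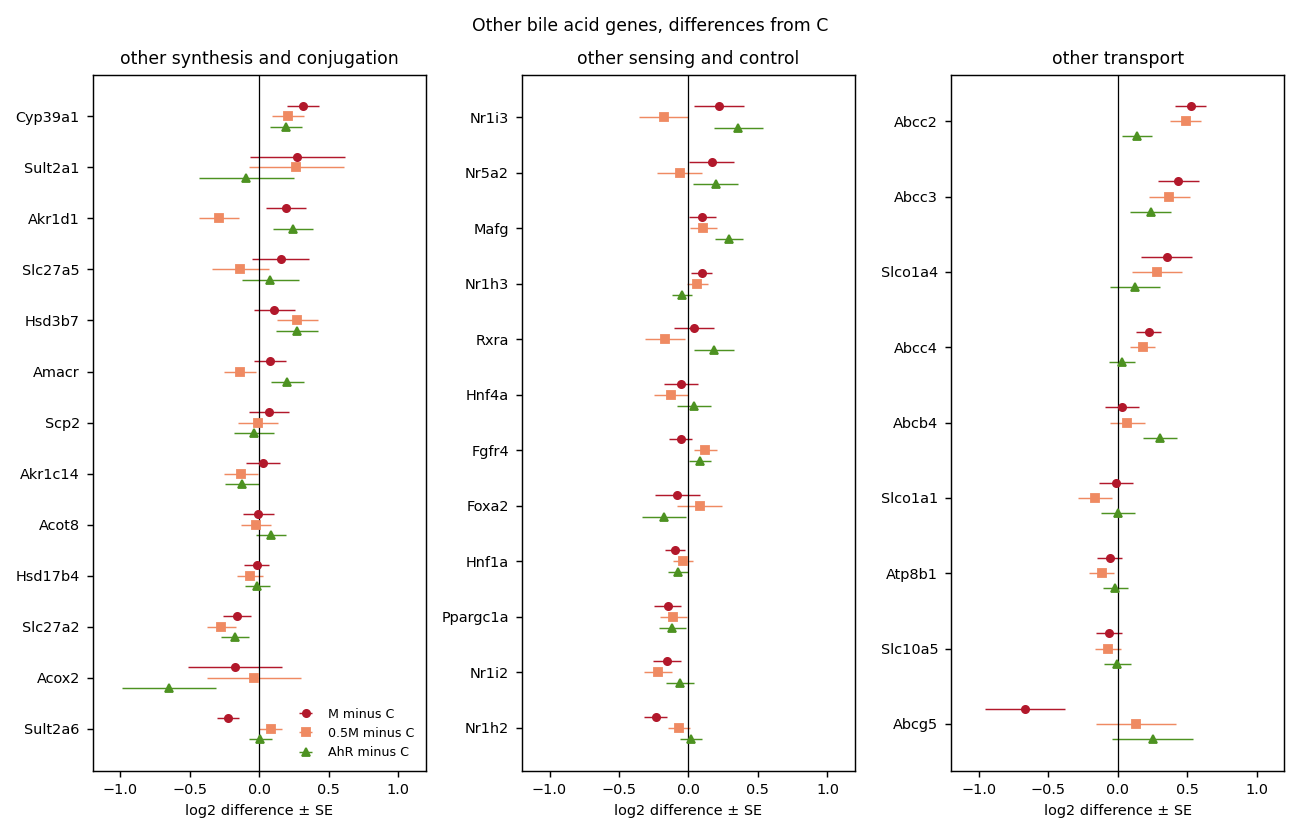
Log2 difference from C, with SE, of the 34 other bile acid genes tested, by role, for M (circles), 0.5M (squares) and AhR (triangles) livers. Abcc2 and Abcc3 had the highest M values among the transporters and Abcg5 the lowest, at -0.67 (-0.28 without M replicate 4).

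Whether members varied together was looked at in 6 pairs over 16 arrays. Group and slide means were left in, so r mixes differences between groups with variation within them. The permutations treated the 16 arrays as exchangeable across groups. Cyp8b1 and Nr0b2 had r = -0.52 (permutation p = 0.0301, adjusted over the 6 pairs 0.180) and rho = -0.51 (permutation p = 0.0427, adjusted 0.256), with r of -0.22 within slide 1, -0.57 within slide 2 and -0.59 without the 2 farthest arrays. Slc10a1 and Nr0b2 had r = 0.59 (permutation p = 0.0839, adjusted 0.252), but rho was 0.085 (permutation p = 0.752). Without C replicate 4 and M replicate 4, both on slide 2, r was -0.083. It was 0.48 within slide 1, which holds neither of these arrays, and 0.66 within slide 2. The other pairs had r of -0.11 for Cyp7a1 and Nr0b2, 0.37 for Cyp7a1 and Cyp8b1, -0.038 for Abcb11 and Nr0b2 and -0.33 for Nr1h4 and Nr0b2, with permutation p of r adjusted over the 6 pairs from 0.282 to 0.826. Of these, 3 turned between the slides or without the 2 farthest arrays. Cyp7a1 with Nr0b2 had r of -0.49 on slide 1, 0.31 on slide 2 and 0.34 without the 2 arrays. Abcb11 with Nr0b2 had -0.52, 0.58 and -0.52, and Nr1h4 with Nr0b2 had -0.64, 0.050 and 0.096, in the same order. Cyp7a1 with Cyp8b1 kept its direction, at 0.70, 0.22 and 0.19. With group and slide means removed, the named transcripts most like Cyp7a1 were Sec61b (r = 0.90), Stam2 (0.88) and Epb41l4b (0.87), and those most like Nr0b2 were Aen (0.89), Bloc1s4 (0.88) and Bet1 (0.87), out of 8554 compared over 16 arrays. With the means left in, r was 0.51, 0.62 and 0.31 with Cyp7a1 and 0.74, 0.58 and 0.89 with Nr0b2, in the same order. How large the highest r of so many would be by chance was not computed.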

How the data were processed

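Liver RNA (Cy5) and universal rat reference RNA (Cy3) were hybridised to 16 Agilent arrays with no dye swap, per the labels. The deposited scan files, written by Agilent Feature Extraction 10.7.3.1 per the file headers, hold median signals and backgrounds as intensity for 62976 spots, a LogRatio on the log10 scale, and spot marks of unit other. A second deposited table, the authors' own log2 values, matched the scan files in scale and direction and served as an alternative.

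Signals were background-corrected (normexp, offset 50) and loess-normalized in limma 3.58.1 (R 4.3.3), leaving out control and flagged spots. The filter kept probes that 4 or more of 16 arrays marked well above background in Cy5, and the brightest probe stood for a transcript; 13139 were tested. Limma fitted group and slide over all 16 arrays, with Benjamini-Hochberg adjustment and a threshold of 0.05, two-sided. The number of arrays, 4 a group, limits the precision. The fit was tested on simulated data. Alternatives changed background, normalization, filter, probe, slide, arrays and weights; 1 was added after the data were seen. No column of another series was present. Members, gene lists and tests were chosen with earlier results of these data known. All members were named in every comparison, and of the other pathway genes those that passed or the 3 with the smallest p. Of the 24 pairs of arrays with the same replicate number, deviations from group means correlated at -0.23 to 0.46, with a median of 0.19. The 72 other pairs between groups had a median of -0.091. Arrays with the same number share a slide. With group and slide removed, the ranges were -0.41 to 0.19 for the same number and -0.46 to 0.70 for the others. The numbers were not used as pairs in the main fit.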

Additional observations from a re-analysis of the deposited data

Results flagged for a closer look

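Of 40 groups of 4 arrays looked at for the 10 genes, 3 held an array far from the others by Dixon's test, where chance gives about 1 in 20. Cyp27a1 in M replicate 3 was at 0.41, with the other M arrays at -0.081 to -0.031. Slc10a1 in AhR replicate 2, the array with pancreas transcripts, was at 0.35, with the others at 0.45 to 0.47. Slc10a1 in C replicate 4 was at 0.047, with the others at 0.39 to 0.42, and Nr0b2 was lowest on that array too, at -2.17.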

How the results depend on the processing

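No member passed in any of 162 alternatives of the 6 comparisons, and the lowest adjusted p was 0.0822 (Slco1b2, M against C, array weights). Over 969 alternatives of 36 member differences, 919 kept their direction, and 20 of the 36 kept it in every one. Part of these could not turn, so the counts overstate how firm the directions are. Aquantile, no slide term, slide as a random block, the replicate block and only the 2 groups compared return the differences of the main fit. The changed filters keep each member's probe, and the mean of probes alters Nr1h4 alone. Leaving out only arrays of groups not compared alters nothing. Differences turned as follows. With median centring, which moved the median of all transcripts in M against C to -0.088 and left 1 transcript called, Baat was -0.22 and Slc10a1 -0.25 in M, and Cyp7a1 -0.053, Baat -0.048, Nr1h4 -0.0076 and Slc10a1 -0.019 in 0.5M. With scanner ratios Cyp7b1 was -0.093 in M, Cyp7a1 -0.067 and Baat -0.0070 in 0.5M and Cyp8b1 0.047 in AhR, and with the mean of probes Nr1h4 was 0.033 in AhR. On slide 1 alone Slc10a1 was -0.019 in M, Cyp7a1 -0.28, Nr1h4 -0.029, Nr0b2 -0.035 and Slc10a1 -0.072 in 0.5M, and Cyp7a1 -0.040, Cyp8b1 0.14 and Cyp7b1 -0.032 in AhR. On slide 2 alone Abcb11 was 0.17 in M, 0.31 in 0.5M and 0.40 in AhR, and Baat -0.033 in 0.5M and 0.11 in AhR. Without the 5 arrays with other tissue Baat was -0.054 in M, Cyp8b1 0.0017 and Nr1h4 0.0058 in AhR. Without the 3 dimmest arrays, chosen after seeing the data, Cyp7a1 was -0.12 and Baat -0.024 in 0.5M, and Cyp8b1 0.013 and Baat 0.035 in AhR. Leaving out 1 array gave -0.56 to 0.074 (M), -0.52 to 0.11 (0.5M) and -0.48 to 0.15 (AhR) for Abcb11, -0.13 to 0.096 for Cyp8b1 and -0.14 to 0.043 for Baat in AhR, -0.028 to 0.050 for Baat, -0.13 to 0.19 for Cyp7a1 and -0.010 to 0.15 for Nr1h4 in 0.5M, and -0.044 to 0.090 (M) and -0.055 to 0.079 (0.5M) for Slc10a1. Over all 60 member differences, leaving out the array that moves each most moved 45 by over 1.5 times or turned them. The cause was not tested.

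Of the other genes, 1 (Abcc2) passed in M against C with the filter on all 16 arrays (adjusted p = 0.0419), array weights (0.0322), and without the 2 arrays with muscle transcripts (0.00797). None passed there without the 2 arrays with pancreas transcripts or without the 5 arrays with other tissue. Leaving out 1 array gave 0 to 1 gene in M against C and in M against AhR, in each case Abcc2 without M replicate 2. With the replicate block, the count of other genes in M against C was 1 (Abcc2, adjusted p = 0.0340) and that of members 0 in all 6 comparisons, with 41 transcripts called in M against C. Between slides 10 members passed with median centring, a setting in which 10347 transcripts passed. With array weights 1 member passed among 1259 transcripts. When 1 array was left out 0 to 1 member passed, and where 1 did, 855 to 924 transcripts passed. The 42 transcripts of M against C became 20 with scanner ratios, 28 with no filter, 65 with array weights, 5 on slide 1 alone, 7 on slide 2 alone and 22 to 50 when 1 array was left out. Dimness limits Cyp7b1 and Abcc3, which have no value with the filter on all 16 arrays, and Aquantile leaves every ratio as it is.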
